A study of Mus musculus with 12 samples.

Results

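A list of 38 genes of the Wnt and beta-catenin pathway was followed in mouse kidney. A gene was a member when its symbol equalled one of 38 listed names, whatever its level, and all 38 were found among the 33188 genes of the table. All 38 also passed the filter on low counts, which kept 19772 genes. By role the list holds 7 ligands, 7 receptors and co-receptors, 9 inhibitors that are secreted or sit in the membrane, 5 proteins of the cytoplasmic pathway, 4 transcription factors and 6 target genes. RNA came from kidneys of wild-type (WT) mice in 3 groups of 4 libraries. CTL was the control group. HUA was a hyperuricemia model made with potassium oxonate, which blocks the enzyme uricase, and hypoxanthine, a purine that is turned into uric acid. XZSW carried the same model and was also given Xin-Zi-Sheng-Wan decoction, a preparation of traditional Chinese medicine. Not given in the sources used here are doses, length of treatment, strain, age and sex. The table names its columns C, N and M, which the sample descriptions tie to CTL, HUA and XZSW, and the HUA and XZSW values given here rest on that tie. Whether the 4 samples of each group are 4 animals is not stated, and p-values then speak only of the spread among the samples, part of which may be technical.

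Wnt proteins are secreted ligands that bind Frizzled receptors together with the co-receptors Lrp5 or Lrp6. In the canonical branch this holds back a destruction complex of Axin, Apc and Gsk3b, so that beta-catenin (Ctnnb1) gathers in the nucleus and works with Tcf and Lef factors on target genes. Several of those targets (Axin2, Nkd1, Nkd2, Sp5, Notum, Rnf43, Znrf3) damp the pathway in turn. In the kidney, Wnt signals build the nephron and the collecting duct during development, and the pathway is known to be switched on again in injured tubules and in fibrosis.

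Library totals were 51.6 to 74.3 M counts. Marker genes of kidney cells were measured in every group: of 66 listed markers of nephron, vessel, stroma and neighbouring tissue, 63 passed the filter. The summed level of 5 proximal tubule markers was 6889 to 8841 CPM (counts per M counts, scaled with TMM factors) in CTL, 1264 to 4443 in HUA and 6979 to 9113 in XZSW. The summed level of 4 markers of injured tubule was 35.0 to 57.5 CPM in CTL, 534 to 2798 in HUA and 44.5 to 79.4 in XZSW. Libraries also stood apart in how their difference from the CTL mean went with the GC content of a gene. In HUA2, HUA3, HUA4, XZSW3 and XZSW4 the difference from CTL rose with the GC content of a gene, by 0.198 to 0.314 log2 units per 10% GC, while the other 7 libraries had slopes of -0.0542 to 0.0421. This split crosses HUA and XZSW, and where it changes the call of a member when it enters the fit, both values are given. CTL libraries were set against their own mean, which centres their slopes by construction, and the source of the slopes was not tested. Genes of adipocytes were high in 1 library, XZSW1, with a summed level of 227 CPM against 0.751 to 28.5 in the other 11.

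Promoter sequences were looked at because canonical targets are reached through Tcf and Lef factors, whose core site is CTTTGAT or CTTTGAA. Windows of 250 bases before a RefSeq gene start (build GRCm38.p6) were searched on both strands (ATCAAAG and TTCAAAG on the other strand), and the motifs share their first 6 bases, so that only 1 of them can match at a given place. Of the 38 members, 24 had a window, and 2 of these, Sp5 and Wnt11, held a match. Counted by window, since a gene can have several starts, that is 2 of 32 windows of members, or 6.25%, beside 7.48% of all 32851 windows. Both are printed, with the match in capitals, because both genes fell in HUA. Wnt7a, the member with the largest fitted rise, is printed below them because its window holds no match. Of the other members called in HUA, Wnt4 and Nkd2 had a window without a match. Notum, which fell, and Myc and Wnt7b, which rose, had no window and were not searched. The match of Sp5 starts 104 bases and that of Wnt11 starts 51 bases before the gene start. The windows lie at chr2:70474673-70474922 on the plus strand (Sp5), chr7:98834862-98835111 on the plus strand (Wnt11) and chr6:91411354-91411603 on the minus strand (Wnt7a). A further start of Wnt11, with its window at chr7:98838595-98838844, had no match. A match describes these letters and does not show a bound factor.
Sp5: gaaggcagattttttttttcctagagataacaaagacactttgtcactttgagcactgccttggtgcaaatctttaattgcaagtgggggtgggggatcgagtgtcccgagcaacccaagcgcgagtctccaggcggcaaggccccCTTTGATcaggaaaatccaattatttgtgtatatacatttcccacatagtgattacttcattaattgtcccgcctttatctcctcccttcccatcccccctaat
Wnt11: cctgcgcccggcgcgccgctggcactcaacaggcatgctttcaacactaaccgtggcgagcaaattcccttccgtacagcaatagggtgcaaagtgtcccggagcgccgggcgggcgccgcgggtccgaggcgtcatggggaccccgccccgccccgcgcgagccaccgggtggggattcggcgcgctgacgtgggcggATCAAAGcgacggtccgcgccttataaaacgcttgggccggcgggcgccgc
Wnt7a: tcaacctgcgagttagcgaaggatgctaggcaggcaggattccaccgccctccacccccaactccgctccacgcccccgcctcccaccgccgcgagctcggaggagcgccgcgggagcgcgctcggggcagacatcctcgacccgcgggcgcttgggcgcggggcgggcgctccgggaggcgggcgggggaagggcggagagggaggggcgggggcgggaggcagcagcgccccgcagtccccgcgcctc

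Levels per transcript length were compared in the deposited FPKM values. In CTL, beta-catenin itself had the highest level of the 38 members, 45.8 ± 4.59 FPKM (SD, n = 4), followed by cyclin D1 (Ccnd1) at 38.6 ± 6.81 FPKM, and the ranges of these neighbours overlapped. Dvl1, a scaffold that carries the signal from the receptor to the destruction complex, stood at 21.4 ± 1.74 FPKM and the R-spondin receptor Lgr4 at 18.1 ± 1.36 FPKM. Next came Fzd4, Sfrp1 and Notum, at 11.9, 10.7 and 10.2 FPKM, with overlapping ranges. Of the 38 members, 7 reached 10 FPKM in CTL, 14 lay between 1 and 10, and 17 lay under 1. The low members were mostly ligands and feedback targets: 6 of the 7 ligands were under 1 FPKM, the exception being Wnt7b at 1.45 ± 0.356 FPKM, and Axin2, a target often used as a readout of the canonical branch, was at 0.0665 ± 0.0282 FPKM. Wnt7a was the lowest, with 5 counts in all of CTL.

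**Figure D1:**
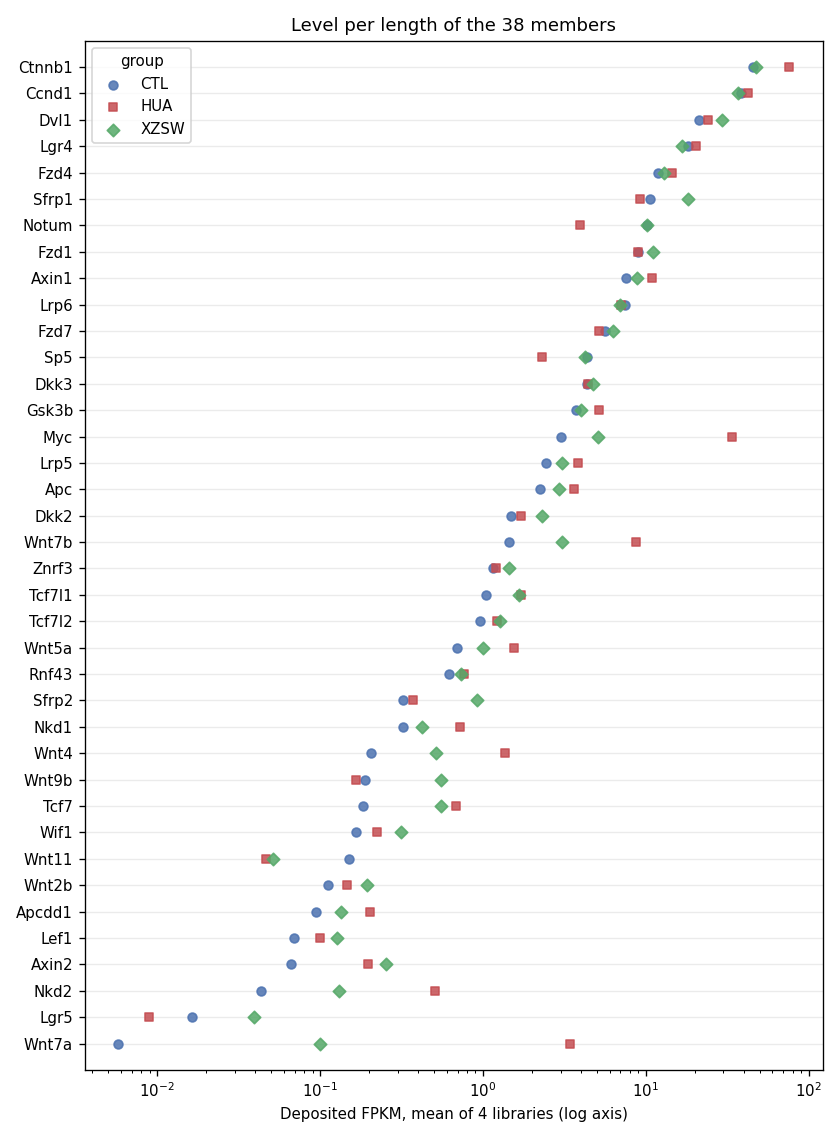
Mean deposited FPKM of 4 libraries per group for each of the 38 members on a log axis, ordered by the CTL level. The 3 groups lie close together for the receptors Lgr4 and Fzd4, while Myc, Wnt7b, Wnt4, Nkd2 and Wnt7a stand farther right in HUA and Notum, Sp5 and Wnt11 farther left; FPKM carries no TMM factor, and over all genes the fitted changes on that scale lie 0.31 log2 units higher for HUA against CTL.

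The first comparison, HUA against CTL, asks what the urate model did to these genes. Of the 38 members, 5 rose and 3 fell in edgeR's quasi-likelihood test, with Benjamini-Hochberg adjustment across 19772 genes and a threshold of 0.05. The ligands Wnt7a, Wnt7b and Wnt4 and the targets Myc and Nkd2 rose, and the ligand Wnt11, the inhibitor Notum and the target Sp5 fell. Among all genes 27.8% were called in this comparison, 14.9% higher and 12.8% lower, so that the members' share, 21.1%, is not above the background. The median log2 change of the members was 0.01, beside 0.06 for all genes. Values of CTL and HUA did not overlap for 6 members that were higher and 4 that were lower in HUA, and for 30.3% of all genes, 15.1% higher and 15.2% lower. The members thus moved in different directions, and their roles are taken in turn. With library totals in place of TMM the median of all genes moved up by 0.33 log2 units, so directions here are relative to the bulk of genes. In that setting 10 members were called higher, beside 5779 of all 19772 genes.

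**Figure D2:**
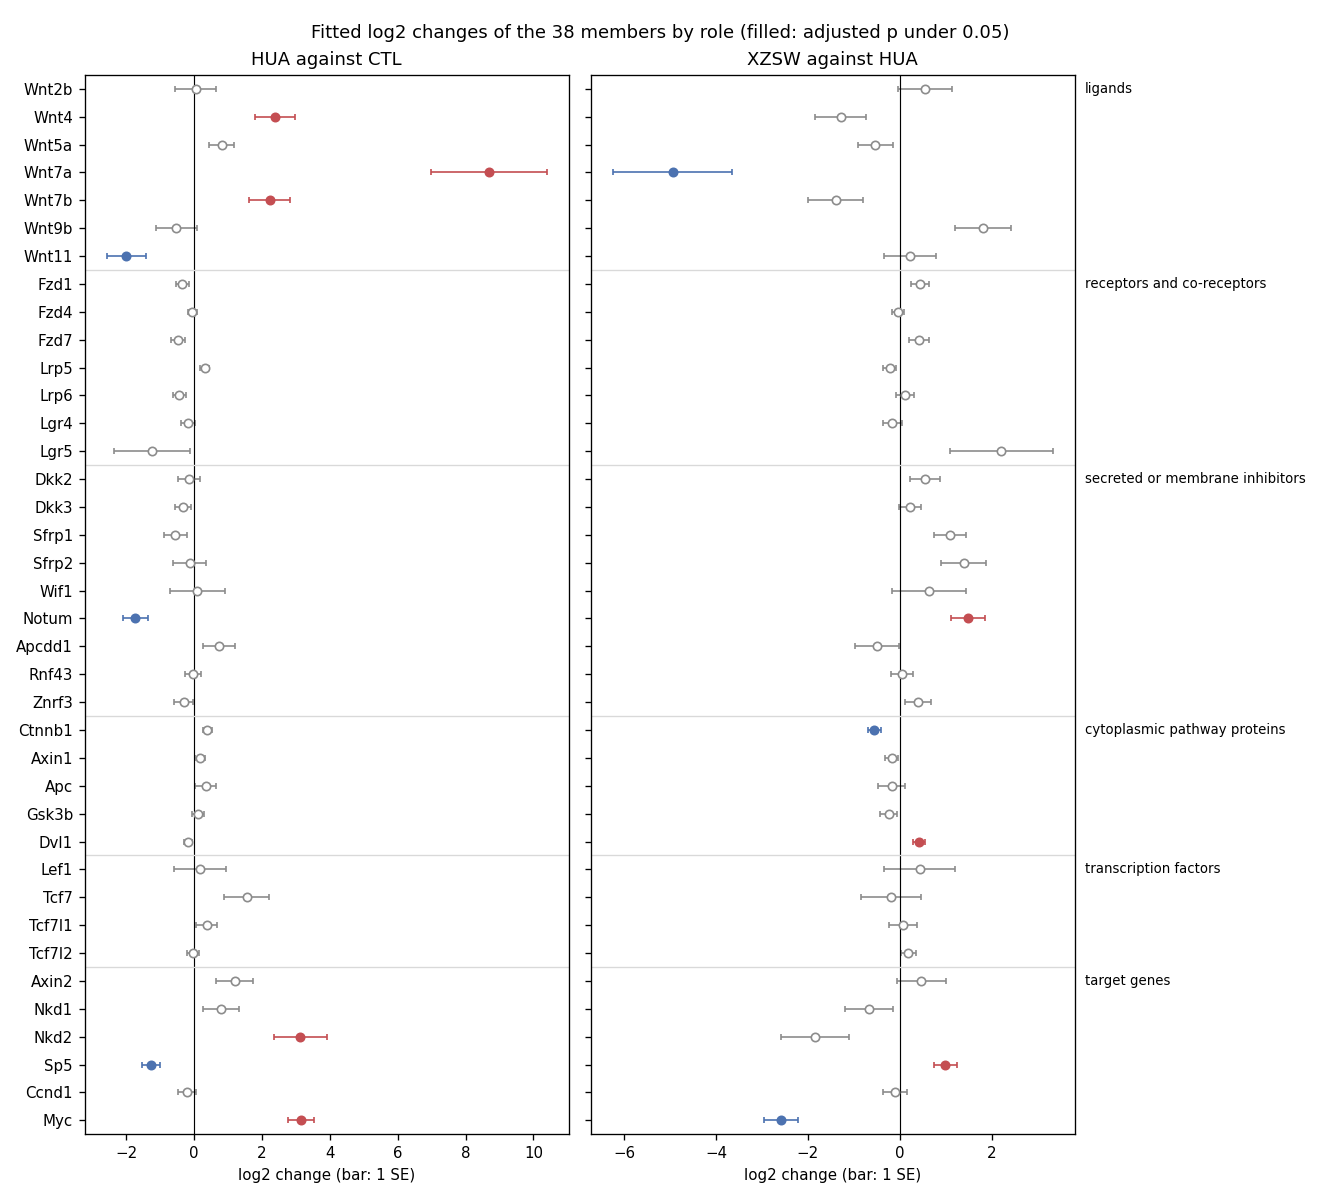
Fitted log2 changes of the 38 members (points, with bars of 1 SE) in HUA against CTL and in XZSW against HUA, grouped by role, with members past an adjusted p of 0.05 filled. On the left 3 ligands and 2 targets lie to the right as filled points and Wnt11, Notum and Sp5 to the left, and all 7 receptors are open in both panels; the panels share the HUA libraries.

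Of the 7 ligands 3 rose and 1 fell, beside 14.9% and 12.8% of all genes. The largest fitted rise of the 38 members was that of Wnt7a. Wnt7a, a ligand best known from limb patterning and the female reproductive tract, lies at chr6:91363981-91411363 on the minus strand. It had 0, 5, 0 and 0 counts in CTL1 to CTL4, 508, 126, 2040 and 713 in HUA1 to HUA4, and 90, 5, 0 and 0 in XZSW1 to XZSW4. The HUA libraries were thus apart from both other groups, with HUA3 highest and HUA2 lowest, and in XZSW all but 5 of the 95 counts came from XZSW1. The rise in HUA was 8.69 ± 1.71 on the log2 scale (SE, adjusted p = 0.0025, edgeR). Summed over libraries, HUA had 472 times the count of CTL per effective library size (95% exact interval 202 to 1455, counting error only). All CTL counts came from CTL2. Without that library the fitted log2 change was 12.46 (adjusted p = 0.0113, edgeR), a size with no CTL count behind it. Without HUA3 the log2 change was 7.95 (adjusted p = 0.0078). The other alternatives gave sizes from 1.86 with limma on log2(FPKM + 1) to 10.88 with the GC split, all past the threshold.

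Wnt7b, which the collecting duct makes and the renal medulla needs to form, lies at chr15:85535437-85581821 on the minus strand. Its level was 5.99, 9.46, 9.84 and 10.6 CPM in CTL1 to CTL4, 33.7, 20.4, 85.9 and 27.8 in HUA1 to HUA4 and 22.8, 2.11, 12.6 and 26.1 in XZSW1 to XZSW4. All HUA libraries were above all CTL libraries, HUA3 by the widest margin, while XZSW ran from below CTL to the lower HUA values. It rose in HUA by 2.22 ± 0.61 on the log2 scale, or 4.67-fold (adjusted p = 0.0157, edgeR). Wnt4, the ligand that turns nephron progenitors into epithelium, was at 0.573, 0.436, 2.09 and 1.24 CPM in CTL1 to CTL4, 1.89, 5.38, 9.89 and 5.43 in HUA1 to HUA4 and 3.22, 0.919, 2.18 and 2.91 in XZSW1 to XZSW4. HUA1 lay within the CTL range and the other HUA libraries above it. Wnt4 rose by 2.38 ± 0.59, or 5.21-fold (adjusted p = 0.0087, edgeR). The calls of both were lost with the GC split as a further factor. The log2 changes were then 1.82 for Wnt7b (adjusted p = 0.0943) and 1.57 for Wnt4 (adjusted p = 0.144). Among the 7 libraries with a flat GC slope, of which HUA1 was the 1 HUA library, the log2 changes were 1.91 and 0.81. All CTL libraries had a flat slope, so the GC slope and the values of HUA1 cannot be told apart here. Wnt7b also missed the threshold without CTL1 (2.07, adjusted p = 0.0506) and without HUA3 (1.64, adjusted p = 0.0587).

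Wnt11, a ligand of the branching tips of the ureteric bud, moved the other way. It stood at 0.906, 0.714, 0.926 and 0.654 CPM in CTL1 to CTL4, 0.287, 0.0582, 0.329 and 0.118 in HUA1 to HUA4 and 0.214, 0.123, 0.291 and 0.305 in XZSW1 to XZSW4. Every HUA and every XZSW library was below every CTL library. In HUA Wnt11 fell by 2.0 ± 0.58 on the log2 scale, or 3.99-fold (adjusted p = 0.0209, edgeR). At these low counts the call was fragile: the log2 change was -2.05 with the GC split (adjusted p = 0.0603), -1.93 without CTL1 (0.0547), -1.92 without CTL3 (0.0529) and -1.79 without HUA4 (0.0565). It was -0.80 and -0.14 with limma on log2(FPKM + 0.1) and log2(FPKM + 1), where low genes are compressed, and these were called, and -1.47 among libraries with a flat GC slope (0.216).

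The other ligands did not pass in HUA against CTL. Wnt5a, which signals mainly outside the beta-catenin branch, was 6.39 to 7.83 CPM in CTL and 10.6 to 14.7 in HUA, so that the groups did not overlap, with a log2 change of 0.81 ± 0.38 (adjusted p = 0.132, edgeR). In XZSW it was 12.6, 2.08, 8.27 and 10.2 CPM, and without the low XZSW2, which feeds the shared estimate of spread, the same log2 change of 0.81 had an adjusted p of 0.0060. Wnt2b had a log2 change of 0.04 (adjusted p = 0.968). Wnt9b, which the ureteric bud uses to induce nephrons, had -0.52 (adjusted p = 0.564).

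The library XZSW2 was low in a set of medullary genes as well. The inner medulla markers Aqp4, a water channel, and Slc14a2, the urea transporter of the inner collecting duct, were 3.37 and 1.20 CPM in XZSW2, against 45.1 to 79.7 and 33.9 to 119 in the other XZSW libraries. The third listed marker, Krt7, did not share this, at 128 CPM in XZSW2 and 147 to 158 in the others. The sum of the 3 markers was 174 to 229 CPM in CTL, 412 to 985 in HUA and 133 to 353 in XZSW, and Krt7 made up most of it in HUA. XZSW2 did not stand apart in medullary markers alone. It was also the lowest XZSW library in the summed thick limb markers, at 1003 CPM against 1927 to 5129. The same held for the sums of fibroblast and pericyte, smooth muscle, macrophage, endothelium, urothelium and dividing cell markers. It was the highest for proximal tubule, distal tubule, intercalated cell, podocyte and B cell markers. The part of tissue sampling in the Wnt5a and Wnt7b values was not tested. In RNA of whole tissue, fewer cells of a type and less RNA per cell cannot be told apart.

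**Figure D3:**
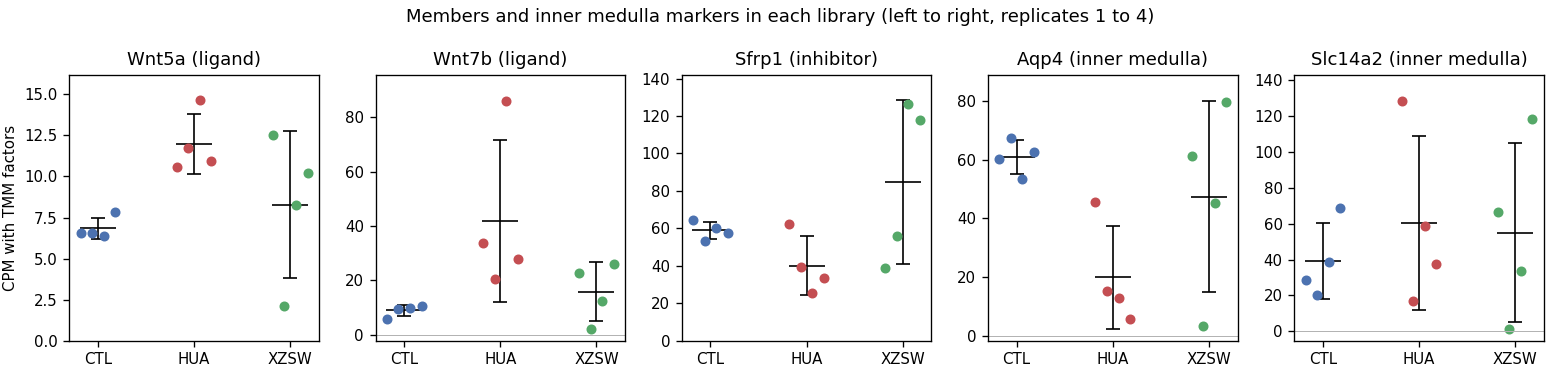
Level in each library (CPM with TMM factors, points from left to right are replicates 1 to 4, bars are mean and SD of 4) of the ligands Wnt5a and Wnt7b, the inhibitor Sfrp1 and the inner medulla markers Aqp4 and Slc14a2. XZSW2 is the lowest library of its group for Wnt5a, Wnt7b and both markers, and Sfrp1 is highest in XZSW3 and XZSW4.

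No receptor or co-receptor passed in any of the 3 comparisons. Of all genes 27.8% were called in HUA against CTL, 15.4% in XZSW against HUA and 4.99% in XZSW against CTL. In HUA against CTL the 7 members of this role had a median log2 change of -0.36, and 2 of 7 had an unadjusted p under 0.05, as did 1 of 7 in XZSW against HUA and 0 of 7 in XZSW against CTL, and DESeq2 called none of them. The Frizzled receptors Fzd1, Fzd4 and Fzd7 had log2 changes of -0.36 ± 0.19, -0.06 ± 0.13 and -0.47 ± 0.21. Fzd7 was 29.8 to 34.6 CPM in CTL and 14.7, 26, 28.8 and 23.6 in HUA, all lower, with an adjusted p of 0.121 (edgeR). HUA1 was the lowest, and among libraries with a flat GC slope the change was -1.12 (adjusted p = 0.0111). The co-receptors differed in sign, with 0.31 ± 0.14 for Lrp5 (adjusted p = 0.113) and -0.43 ± 0.20 for Lrp6 (adjusted p = 0.130). Lrp5 passed in 6 of 23 alternatives, among them the GC split (0.45, adjusted p = 0.0419), libraries with a flat GC slope (0.63, 0.0177), library totals (0.63, 0.0047) and leaving out HUA4 (0.42, 0.0432). Lrp6 was 120 to 138 CPM in CTL and 140, 104, 73.2 and 64.2 in HUA, so that HUA1 stayed above the CTL range. Without HUA1 its log2 change was -0.64 (adjusted p = 0.0075). Lgr4, a receptor of R-spondins, had -0.18 ± 0.21, and its relative Lgr5, a stem cell marker of the gut, was near 0, at 0 to 0.813 CPM over the 12 libraries.

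Among the 9 inhibitors, Notum was the 1 called in HUA against CTL, or 11.1%, beside 27.8% of all genes. Notum is a secreted enzyme that strips the lipid from Wnt proteins, and its gene lies at chr11:120653788-120661175 on the minus strand. It was 36.2, 32.7, 26.7 and 29.6 CPM in CTL1 to CTL4, 11.4, 15.5, 2.56 and 8.28 in HUA1 to HUA4 and 22.8, 29.8, 26.5 and 26.7 in XZSW1 to XZSW4. HUA was below both other groups in every library, with HUA3 lowest, and XZSW overlapped CTL. In HUA Notum fell by 1.73 ± 0.38 on the log2 scale, or 3.31-fold (adjusted p = 0.0045, edgeR), and all 23 alternatives called it. The summed proximal tubule markers given above were also lower in HUA than in both other groups in every library, and 4 of the 5 genes fell. So were the sums of principal cell markers (568 to 610 CPM in CTL, 239 to 441 in HUA and 501 to 1150 in XZSW). The intercalated cell, B cell and adipocyte sums had the same order. Sums of injured tubule, inner medulla and smooth muscle markers went the other way, higher in every HUA library. The part of any of these cell types in the change of Notum was not tested. Notum overlaps the antisense genes Notumos and Myadml2os, whose counts were 11.2% and 4.90% of its own. Libraries were strand-specific per the labels, but the strand setting of the counting was not given, so reads of these partners cannot be told apart.

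The other 8 inhibitors did not pass in HUA against CTL, and none of them had an unadjusted p under 0.05. They include Dkk2 and Dkk3 of the Dickkopf family (log2 changes of -0.15 and -0.33), the Wnt-binding proteins Sfrp1, Sfrp2 and Wif1 (-0.56, -0.13 and 0.09) and Apcdd1 (0.73), which blocks the receptor complex. Rnf43 and Znrf3, ubiquitin ligases that remove Frizzled from the membrane, had -0.04 and -0.30. Znrf3 was 10.8 to 12.3 CPM in CTL and 11.6, 3.63, 11.9 and 10.4 in HUA, with HUA2 alone far below. The median log2 change of the 9 inhibitors was -0.15.

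None of the 5 cytoplasmic proteins passed in HUA against CTL, beside 27.8% of all genes. Beta-catenin (Ctnnb1, chr9:120929216-120960507, plus strand) came nearest. It was 284, 288, 328 and 301 CPM in CTL1 to CTL4, 485, 334, 406 and 345 in HUA1 to HUA4 and 281, 247, 287 and 254 in XZSW1 to XZSW4. All HUA libraries were above all CTL and all XZSW libraries, HUA1 by the most. The log2 change was 0.39 ± 0.14 with an adjusted p of 0.0521 (edgeR), and 13 of 23 alternatives put it past the threshold. These include DESeq2 (0.40, adjusted p = 0.0187), library totals (0.71, 0.0025) and the GC split (0.50, 0.0324). Messenger RNA does not tell how much beta-catenin protein was present or where it lay.

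Apc, the large scaffold of the destruction complex, was 42.1 to 49.7 CPM in CTL, 95.4, 47.6, 53.2 and 36.0 in HUA1 to HUA4 and 68.3, 68.4, 35.1 and 33.9 in XZSW1 to XZSW4. HUA1, XZSW1 and XZSW2, the HUA and XZSW libraries with a flat GC slope, were the 3 highest of the 12. The log2 change in HUA was 0.34 ± 0.30 (adjusted p = 0.441, edgeR) and with the GC split 1.02 (adjusted p = 0.0011), in XZSW against HUA -0.17 (0.746) and -0.43 (0.0306), and in XZSW against CTL 0.16 (0.792) and 0.59 (0.0236). Its transcript is long, at 12811 bases, and has 44.3% GC. Axin1 and Gsk3b, the other parts of that complex, had log2 changes of 0.18 and 0.11, and Dvl1 had -0.18 ± 0.12 (adjusted p = 0.315).

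The 4 transcription factors did not pass, beside 27.8% of all genes called in HUA against CTL. There 1 of the 4 had an unadjusted p under 0.05, and DESeq2 called none. Tcf7 had the largest log2 change, 1.54 ± 0.68 (adjusted p = 0.108, edgeR), at 0.377 to 1.09 CPM in CTL and 0.960 to 3.31 in HUA, where HUA4 lay within the CTL range. Without XZSW4, where Tcf7 was far above the rest of its group, the same change had an adjusted p of 0.0255. Lef1, Tcf7l1 and Tcf7l2 had log2 changes of 0.18, 0.37 and -0.03. Tcf7l2, a main partner of beta-catenin in many epithelia, was 8.89 to 15.1 CPM over the 12 libraries.

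Target genes were split, with 3 of 6 called in HUA against CTL, beside 27.8% of all genes. Myc, a growth-promoting transcription factor that beta-catenin and many other signals switch on, lies at chr15:61985391-61990350 on the plus strand. It was 6.47, 9.82, 6.07 and 18.9 CPM in CTL1 to CTL4, 95.2, 99.6, 106 and 63.7 in HUA1 to HUA4 and 21.7, 18.2, 9.92 and 10.9 in XZSW1 to XZSW4. The lowest HUA library was above every library of the other groups, and XZSW overlapped CTL. Myc rose in HUA by 3.14 ± 0.38 on the log2 scale, or 8.83-fold (adjusted p = 0.000128, edgeR), the smallest p of the 38 members, and all 23 alternatives called it. The other called rise was Nkd2, a feedback inhibitor that binds Dishevelled, at chr13:73818534-73847631 on the minus strand. It was 0.0740 to 0.536 CPM in CTL and 0.735, 2.78, 4.67 and 1.58 in HUA1 to HUA4, all higher, with HUA3 highest and HUA1 close to CTL. Nkd2 rose by 3.13 ± 0.78, or 8.75-fold (adjusted p = 0.0097, edgeR). The log2 change was 1.82 with the GC split (adjusted p = 0.15), 1.40 among libraries with a flat GC slope (0.413) and 0.50 with limma on log2(FPKM + 1), where it was called.

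Sp5, a zinc finger factor that is a direct target of beta-catenin in many tissues and whose promoter match is printed above, fell. Its gene lies at chr2:70474923-70477729 on the plus strand. It was 11.4, 11.8, 13 and 10.5 CPM in CTL1 to CTL4, 2.52, 6.94, 5.66 and 4.21 in HUA1 to HUA4 and 8.11, 10.6, 9.85 and 9.77 in XZSW1 to XZSW4. HUA was below both other groups in every library. In HUA it fell by 1.27 ± 0.26 on the log2 scale, or 2.41-fold (adjusted p = 0.0028, edgeR), a change called in all 23 alternatives and larger (-2.21) when only the libraries with a flat GC slope were used. As for Notum, the proximal tubule markers and the other lower marker sums named there moved with Sp5, and their part was not tested. Axin2 (1.19 ± 0.54, adjusted p = 0.123) and Nkd1 (0.79 ± 0.52, adjusted p = 0.292) did not pass. Axin2 was 0.296 to 0.689 CPM in CTL and 0.531 to 1.45 in HUA, with HUA4 inside the CTL range. Cyclin D1 had -0.21 ± 0.26 (adjusted p = 0.589), at 165 to 256 CPM in CTL and 154 to 287 in HUA.

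Counted across roles, 11 members are known feedback targets, namely Axin2, Nkd1, Nkd2, Sp5, Lgr5, Rnf43, Znrf3, Notum, Apcdd1, Lef1 and Tcf7. In HUA against CTL 1 of these 11 rose (Nkd2) and 2 fell (Notum and Sp5), with a median log2 change of 0.18. Those 3 called members are 27.3% of the 11, beside 27.8% of all genes.

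**Figure D4:**
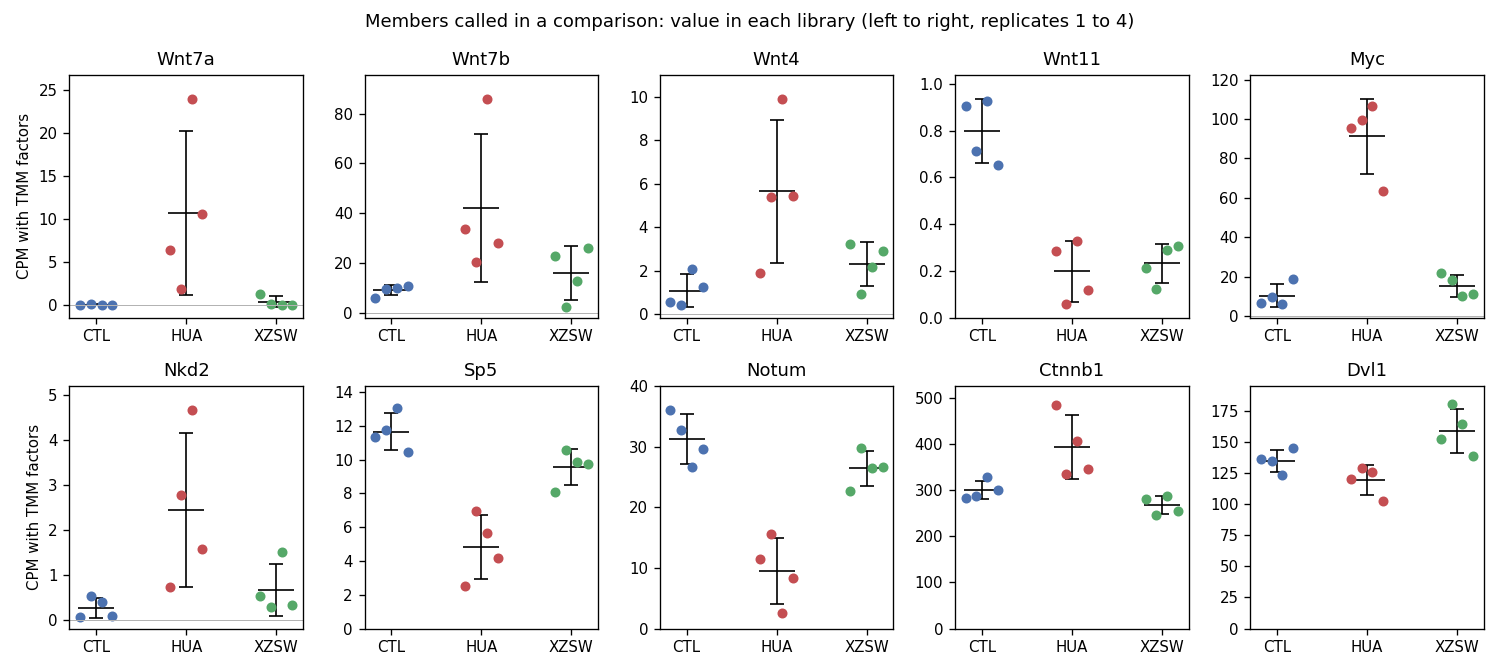
Level in each library (CPM with TMM factors, points from left to right are replicates 1 to 4, bars are mean and SD of 4) of the 10 members that passed in HUA against CTL or in XZSW against HUA. For Myc, Sp5, Notum and Wnt7a the HUA libraries lie apart from both other groups, while Wnt11 stays low in XZSW and Wnt7b, Wnt4 and Nkd2 spread over the ranges of CTL and HUA.

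The comparison of XZSW with HUA asks what the decoction did within the model. It shares the HUA libraries with the first comparison, so the fitted changes of both are linked by construction and are given side by side only. Of the 38 members, 3 rose (Notum, Dvl1 and Sp5) and 3 fell (Wnt7a, Ctnnb1 and Myc) in XZSW. Among all genes 15.4% were called, 7.09% higher and 8.34% lower, so that the members' share, 15.8%, lies near the background. The median log2 change of the members was 0.09, beside 0.01 for all genes. Values did not overlap for 4 members that were higher and 3 that were lower, against 18.1% of all genes, 8.98% higher and 9.08% lower.

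In XZSW Myc fell by 2.59 ± 0.37 on the log2 scale, or 6.01-fold (adjusted p = 0.0011, edgeR), and all 24 alternatives called it. Notum rose by 1.49 ± 0.37, or 2.80-fold (adjusted p = 0.0185, edgeR). Sp5 rose by 0.99 ± 0.25, or 1.98-fold (adjusted p = 0.0207, edgeR). As the values above show, XZSW and HUA did not overlap for any of these 3. The proximal tubule markers were higher in XZSW as well, where 4 of 5 rose. The sums of principal cell, intercalated cell, B cell and adipocyte markers were also higher in every XZSW library than in HUA. The part of these cell types was not tested. In a fit of only the 8 libraries compared, Notum (1.49, adjusted p = 0.0612) and Sp5 (0.99, adjusted p = 0.0737) missed the threshold. Sp5 also missed it without HUA4 (0.92, adjusted p = 0.0532) and without XZSW2 (0.94, adjusted p = 0.0549). Among the 5 libraries with a high GC slope (3 HUA and 2 XZSW), Myc was the 1 gene of the 6 changed members that passed, and the calls of the others were lost.

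In XZSW beta-catenin (Ctnnb1) fell by 0.56 ± 0.14 on the log2 scale, or 1.47-fold (adjusted p = 0.0178, edgeR), with every XZSW library below every HUA library. The call was lost in the fit of the 8 libraries (-0.55, adjusted p = 0.0722) and without XZSW2 (-0.52, adjusted p = 0.056). Dvl1 was 120, 129, 126 and 103 CPM in HUA1 to HUA4 and 152, 181, 164 and 139 in XZSW1 to XZSW4, beside 124 to 145 in CTL, so that XZSW was above HUA in every library. It rose by 0.41 ± 0.12, or 1.33-fold (adjusted p = 0.0384, edgeR). Its call held in only 8 of 24 alternatives, with log2 changes of 0.24 to 0.49 and the lower end under library totals (adjusted p = 0.191). Leaving out HUA3, HUA4, any CTL library, XZSW1, XZSW2 or XZSW3 ended it, with changes of 0.34 to 0.43.

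Of the ligands, Wnt7a fell by 4.94 ± 1.30 on the log2 scale (adjusted p = 0.0229, edgeR). Per effective library size HUA had 31.1 times the count of XZSW (95% exact interval 25.3 to 38.5, counting error only). The size rests on XZSW1, without which the log2 change was -8.58 (adjusted p = 0.0036), and the call was lost with DESeq2 (-4.96, adjusted p = 0.0760), in the fit of the 8 libraries (-4.95, 0.0560), without HUA3 (-4.18, 0.0782), without XZSW2 (-4.62, 0.0613) and among libraries with a flat GC slope (-3.19, 0.230). Wnt7b and Wnt4 did not pass, at -1.40 ± 0.59 (adjusted p = 0.132) and -1.29 ± 0.56 (adjusted p = 0.141), and their XZSW libraries overlapped those of HUA. Nkd2, likewise not past the threshold, had -1.85 ± 0.73 (adjusted p = 0.107). Wnt11 had 0.22 ± 0.57 (adjusted p = 0.836), with XZSW and HUA in the same low range.

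Some members came near the threshold in XZSW against HUA without passing it. Wnt9b was 0.872, 1.24, 0.352 and 0.561 CPM in HUA1 to HUA4 and 1.81, 0.460, 3.31 and 4.98 in XZSW1 to XZSW4, high in all but XZSW2, with a log2 change of 1.80 ± 0.61 (adjusted p = 0.0623, edgeR). Sfrp2, a decoy that binds Wnt proteins, was 0.280 to 1.38 CPM in HUA and 1.68 to 2.90 in XZSW, all higher, with 1.39 ± 0.49 (adjusted p = 0.0730). Sfrp1, a decoy of the same family, was 62.2, 39.4, 25.3 and 33.3 CPM in HUA1 to HUA4, 38.6, 56.0, 127 and 118 in XZSW1 to XZSW4 and 53.4 to 64.4 in CTL. The XZSW libraries thus fell on both sides of CTL, with XZSW3 and XZSW4, which have a high GC slope, above all others. The log2 change of Sfrp1 was 1.08 ± 0.35 (adjusted p = 0.0517, edgeR). Among libraries with a high GC slope it was 1.91 (adjusted p = 0.0448) and among those with a flat slope -0.38. Within XZSW, markers of collecting duct principal cells were among those that moved with Sfrp1. Their sums were 501 and 608 CPM in XZSW1 and XZSW2 and 1095 and 1150 in XZSW3 and XZSW4. In HUA1 to HUA4 the sums were 407, 298, 441 and 239 CPM, and HUA3, the highest, had the lowest Sfrp1. Principal cells were not alone in the order within XZSW. Sums of thick limb, fibroblast and pericyte, macrophage and T cell markers were also lower in XZSW1 and XZSW2 than in XZSW3 and XZSW4. The adipocyte sum had the opposite order, and the remaining sums had neither. The part of any of these markers was not tested.

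The comparison of XZSW with CTL shows how the treated group stood against controls. None of the 38 members passed in edgeR's quasi-likelihood test, beside 4.99% of all genes (2.72% higher and 2.27% lower), 4 members had an unadjusted p under 0.05, and DESeq2 called 1 higher (Axin2) and 1 lower (Wnt11). The median log2 change of the members was 0.20, beside 0.04 for all genes. Values did not overlap for 1 member that was higher (Sfrp2) and 2 that were lower (Wnt11 and Lrp6), against 21.6% of all genes, 10.3% higher and 11.3% lower. Axin2 was 1.92, 0.383, 1.25 and 2.44 CPM in XZSW1 to XZSW4, above the CTL maximum of 0.689 in all but XZSW2, with a log2 change of 1.66 ± 0.55 (adjusted p = 0.0921, edgeR). Wnt11 had -1.77 ± 0.58 (adjusted p = 0.0886). The members that had changed in HUA had 0.56 ± 0.35 for Myc (adjusted p = 0.372), -0.24 ± 0.36 for Notum (0.741), -0.28 ± 0.25 for Sp5 (0.540), 0.83 ± 0.59 for Wnt7b (0.433), 1.09 ± 0.57 for Wnt4 (0.271) and 1.28 ± 0.75 for Nkd2 (0.332). Wnt7a had the largest of these changes, 3.74 ± 1.71 (adjusted p = 0.210), with 95 counts in XZSW, 90 of them in XZSW1, against 5 in CTL. A p that misses the threshold does not show that these levels equal those of CTL.

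Other genes of the pathway were counted from a wider list of 87 names, of which 85 were in the table and 71 passed the filter. The list was chosen with earlier results of these data known, so its shares beside those of all genes are no test of the pathway. In HUA against CTL 21 of these 71 rose and 4 fell, with a median log2 change of 0.51, beside 14.9% and 12.8% of all genes and a median of 0.06. In XZSW against HUA 2 rose and 11 fell, with a median of -0.21, beside 7.09% and 8.34% of all genes, and 6 fell without HUA3 or without XZSW2, 7 without XZSW1 and 5 in the fit of the 8 libraries. In XZSW against HUA 1 rather than 2 rose without any 1 library other than CTL4 and HUA1. In XZSW against CTL 3 rose and 1 fell, beside 2.72% and 2.27% of all genes, and without CTL2 or without CTL3 there were 0 and 0. Without CTL4, XZSW2 or XZSW3 just 1 rose there, and without CTL1, XZSW1, XZSW2 or XZSW3 none fell, while without HUA1 or HUA3 5 rose. A group of 10 further targets reported for beta-catenin, mostly in tumours, were on that list, and 5 of the 10 rose in HUA and fell in XZSW against HUA, which shares the HUA libraries, beside 14.9% of all genes higher in HUA against CTL and 8.34% lower in XZSW against HUA.

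The named genes of the wider list were the 10 with the smallest p. Plaur, the urokinase receptor, was 2.94 to 4.71 CPM in CTL, 38 to 99.8 in HUA and 2.22 to 8.04 in XZSW, and rose in HUA by 4.25 ± 0.42 on the log2 scale (adjusted p = 3.81e-05, edgeR). Cd44, the receptor of hyaluronan and osteopontin, rose by 3.50 ± 0.38 and Mmp7, a matrix protease of injured tubules, by 4.67 ± 0.69. Fosl1, a subunit of the factor AP-1, rose by 4.13 ± 1.06, spread widely over HUA1 to HUA4 at 16.1, 4.26, 6.12 and 0.989 CPM, and without HUA1 the change was 3.30. In XZSW against HUA the log2 changes of Plaur, Cd44, Mmp7 and Fosl1, all past the threshold, were -3.74, -2.77, -3.55 and -5.38, and Fosl1 had -4.53 without HUA1 and -7.66 without XZSW1. Mmp7 missed the threshold among flat-slope libraries (-3.81, adjusted p = 0.0781), and among the 5 libraries with a high GC slope none of the 71 genes was called. The kinase Csnk1e, which acts on Dishevelled, rose by 1.82 ± 0.19 and fell by 1.39 ± 0.19. The receptor Fzd3 rose by 1.32 and fell by 0.72, and Jup, the relative of beta-catenin in cell junctions, rose by 0.68 and fell by 0.49, which missed the threshold in the fit of the 8 libraries (adjusted p = 0.0676). Fzd6 (0.82) and Bcl9 (1.08), a partner of beta-catenin in the nucleus, rose in HUA, and their log2 changes in XZSW against HUA were -0.29 and -0.07. Bcl9 was still above CTL in XZSW, by 1.02 ± 0.19 (adjusted p = 0.0158, and 0.0569 and 0.0556 without CTL2 and CTL3, at the same change). Trabd2b, a membrane protease that cuts Wnt proteins, was the 1 named gene that was lower in HUA, where it fell by 1.10 ± 0.22, and rose in XZSW, by 0.73 ± 0.22. In XZSW against HUA the call of Fzd3 was lost without CTL3, CTL4, HUA3, HUA4 or any XZSW library (-0.78 to -0.59), and that of Trabd2b without CTL1, CTL2, CTL3, HUA2, HUA3, HUA4 or any XZSW library (0.58 to 0.78). Trabd2b also lost it with library totals (0.57), without the low-count filter (0.71) and in the fit of the 8 libraries (0.73), and among libraries with a flat GC slope its change was 0.04 (adjusted p = 0.949). Fzd3 lost it likewise without the filter (-0.73), in the fit of the 8 libraries (-0.72) and among flat-slope libraries (-0.52, adjusted p = 0.421). Among flat-slope libraries the changes of Fzd3 and Trabd2b in HUA against CTL also missed the threshold, at 0.99 (adjusted p = 0.0521) and -0.48 (adjusted p = 0.11).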

How the data were processed

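Kidney RNA of 12 samples was measured by RNA-seq. The authors deposited 1 table that gives each gene a count and an FPKM for every sample, per the file headers. The submitters' processing notes name cutadapt 1.9, HISAT2 2.2.1 and the build GRCm38, while the counting tool, its strand setting and the annotation release are not given in the sources used here. Genes were kept with edgeR's filterByExpr, scaled by TMM and put through edgeR's quasi-likelihood F-test in 1 fit of all 12 libraries, with Benjamini-Hochberg adjustment over 19772 genes and a threshold of 0.05. Standard errors come from the F statistic. Levels of 1 gene are CPM with TMM factors, and levels between genes are the deposited FPKM.

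Alternatives were other scalings, filters, DESeq2, limma on log2(FPKM + 1) and log2(FPKM + 0.1), fits of 8 libraries, a replicate block, the GC split and leaving out each library, and, added after the data were seen, fits of only flat or only high GC slope libraries. The members, the lists and the GC split were chosen with earlier results of these data known. All 38 members are named, and of the wider list the 10 with the smallest p over the comparisons. Promoter windows are from RefSeq, GRCm38.p6. Coordinates are those of the table (GRCm38). Of the members 33 of 38 had the same coordinates in GENCODE M21, and 17 overlap another gene of the table. Fits were also run on simulated counts. Changes were put only into genes with a mean of at least 1 CPM, so members below that level were not covered. Software was Python 3.11.15 with pandas 2.3.3, numpy 2.4.6 and matplotlib 3.10.9, and R 4.3.3 with DESeq2 1.42.0, limma 3.58.1 and edgeR 4.0.16.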

Additional observations from a re-analysis of the deposited data

Results flagged for a closer look

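In 7 of 114 groups of 4 (38 members in 3 groups), 1 library lay so far from the others that its gap to the nearest passed Dixon's 95% critical value; chance alone does so in about 1 of 20 groups. None of the 7 was in HUA. Wnt7a was 0.0992 CPM in CTL2 and 0 in the other CTL libraries, and 1.28 CPM in XZSW1 against 0 to 0.0766 in the other XZSW libraries. Wnt5a was 7.83 CPM in CTL4 against 6.39 to 6.57 in the other CTL libraries. Apcdd1 was 0.490 CPM in XZSW2 against 2.2 to 2.36 in the other XZSW libraries. Tcf7 was 4.95 CPM in XZSW4 against 0.582 to 0.855. Cyclin D1 stood apart in both CTL3, at 165 CPM against 249 to 256, and XZSW1, at 291 CPM against 146 to 155.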

How the results depend on the processing

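In HUA against CTL, members called higher numbered 5, and 10 with library totals, 8 with limma on log2(FPKM + 0.1) and 9 on log2(FPKM + 1). Of all 19772 genes 2950 were called higher, and 5779, 5862 and 5673 in those settings, in that order. Leaving out 1 library gave 4 to 7 members higher and 2 to 4 lower. Over all genes it gave 2275 to 3562 higher and 1807 to 2785 lower, of 20219 to 20477 tested. In XZSW against HUA, 3 were called higher and 3 lower. DESeq2 gave 6 higher, the fit of the 8 libraries 0 and 1, and the 5 libraries of high GC slope 1 and 1, with 41 genes called in all. Over all genes DESeq2 called 1954 of 19772 higher. The fit of the 8 libraries called 520 higher and 919 lower of 19238, and the high GC slope libraries 5 and 36 of 20112. Leaving out 1 library gave 1 (HUA4) to 6 (HUA2) higher and 1 (XZSW2) to 4 (XZSW3) lower. Over all genes 970 of 20336 were higher without HUA4 and 1579 of 20343 without HUA2. Lower were 1071 of 20327 without XZSW2 and 1224 of 20241 without XZSW3. In XZSW against CTL, with 0 members called, 1 was higher with DESeq2, with the GC split, with limma on log2(FPKM + 0.1) and with flat GC slopes only, and 2 with limma on log2(FPKM + 1); 1 was lower with DESeq2, limma on log2(FPKM + 0.1), flat slopes only and the 8 libraries. Over all 19772 genes 1408 were higher with DESeq2, 944 with the GC split, 1545 with limma on log2(FPKM + 0.1) and 1188 on log2(FPKM + 1). Lower were 1009 with DESeq2, 199 with limma on log2(FPKM + 0.1) and, of 18535 genes, 1347 in the 8 libraries. Leaving out 1 library gave 0 to 1 (XZSW2) members higher, and without XZSW2 400 of all 20327 genes were higher.

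Over all genes, 5488 were called in HUA against CTL, with 4208 to 6347 when 1 library was left out. In XZSW against HUA 3051 were called, 1439 in the fit of 8 libraries and 1711 (HUA3) to 3817 with 1 library left out. In XZSW against CTL 987 were called, 2417 with DESeq2, 1750 with the GC split, 1744 with limma on log2(FPKM + 0.1), 529 without the filter, 2841 with flat slopes only, 2625 in the fit of 8 libraries and 133 (CTL2) to 1596 (HUA1) with 1 library left out, and 520 or fewer when that library was from CTL or was XZSW1, XZSW3 or XZSW4. The 8-library and slope fits used fewer libraries, and the fit without the filter tested 32458 genes rather than 19772. The cause of these shifts was not tested. Library totals moved the median log2 change of all genes by 0.33, -0.17 and 0.16 and the share of calls that were higher from 53.8% to 81.4%, from 46.0% to 23.5% and from 54.5% to 84.5%; limma on log2(FPKM + 1) gave 80.05%, 33.2% and 86.3%. Among the 38 members and the 10 named genes, no change past the threshold took the other sign in any alternative.

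Same-numbered samples share only a number: correlations of their deviations from the group means were -0.0330 to 0.289, with 6 of 12 above 0.1. With a replicate block, 5466, 3076 and 813 genes were called, members called higher were 6, 3 and 0, and members called lower 3, 3 and 0. Depth limits members with few counts, such as Wnt7a with 5 counts in CTL.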

Other observations

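In the wider pathway list, the 10 names by the smallest p leave out other genes that passed. Some of these are named here after their values were seen. The rest, among them a further target and calls in XZSW against HUA, are not named. In HUA against CTL the ligands Wnt9a and Wnt10a rose, 2 of 5 tested, and the receptors Fzd2 and Fzd8 rose beside Fzd3 and Fzd6, 4 of 10 tested, beside 14.9% of all genes higher in that comparison. The planar polarity genes Vangl2 and Prickle1 rose, 2 of 5 tested, as did the cytoplasmic Dvl3 and Csnk1d and the nuclear Pygo2 and Ctbp2. The inhibitor Frzb, Fbxw11 of the ligase that marks beta-catenin for destruction, and the co-repressor Tle4 fell beside Trabd2b, and the inhibitor Serpinf1 rose. In XZSW against CTL Dvl3, Bcl9 and Tle2 were higher and Fbxw11 was lower, beside 2.72% and 2.27% of all genes, and none of the 4 was called without CTL2 or without CTL3.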
